A study of Mus musculus with 48 samples.

Results

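The 10 imprinted genes Meg3, Rian, Mirg, Dlk1, H19, Igf2, Peg3, Kcnq1ot1, Peg10 and Igf2r were followed in nascent RNA of mouse embryonic stem cells. They were taken from the gene count matrix by name, and all 10 had a row among its 55376 rows. The cells were TCF2.2, an embryonic stem cell line derived and kept in 2i medium, with the strain label C57BL/6, and they took up 500 µM 4-thiouridine for 5 min so that RNA made in that time could be pulled down and sequenced. There were 4 groups of 2 libraries. BRM014, an inhibitor of the ATPases BRG1 and BRM of the SWI/SNF remodelling complex, was given at 10 µM for 3 h, and DMSO for 3 h was its control. Cells infected with lentivirus for an shRNA to Chd4, which encodes an ATPase subunit of NuRD, were compared with cells given a scrambled shRNA, each after 24 h in 1.5 µg/mL puromycin. The columns number these libraries r1 and r2 for BRM014 and DMSO, r1 and r4 for Chd4 shRNA and r1 and r3 for scrambled shRNA. All libraries come from 1 line, and nothing in the labels says whether replicates were separate cultures, so p-values measure the spread between these libraries.

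Imprinted genes are transcribed mainly from the copy inherited from 1 parent, which is set by a differentially methylated control region in each domain. In the Dlk1-Dio3 domain the maternal copy makes Meg3, Rian and Mirg from 1 direction, as hosts of many small nucleolar RNAs and microRNAs, while the paternal copy makes Dlk1, Rtl1 and Dio3. Kcnq1ot1 is a long antisense RNA started inside Kcnq1 on the paternal copy that keeps neighbouring genes silent there, and Igf2r is made from the maternal copy in most mouse tissues while its antisense RNA Airn is made from the paternal one. H19 and Igf2 share enhancers and are read from opposite copies, and Peg3 and Peg10 are paternally expressed. The matrix counts both copies together, so the allele behind each count was not measured here.

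The promoter windows of the members whose counts the results turn on are printed first, to show where transcription of each is annotated to begin and how they differ. RefSeq windows (GRCm38.p6, the NCBI name of a patch release of the mm10 build that the counts use) were found for 8 of the 10 genes; H19 and Peg10 had none. Each window holds 250 bases before the start and 50 from it. They lie at chr12:109540746-109541045 (+ strand), chr12:109603695-109603994 (+ strand), chr7:143296498-143296797 (− strand), chr17:12769657-12769956 (− strand) and chr7:6730370-6730669 (− strand). Capitals mark matches on either strand to 4 motifs: TGACGTCA, the cAMP response element, CCAAT, the CCAAT box, TATAAA, the core of the TATA box, and TGCCGC, the hexamer that ZFP57 binds when methylated. The Meg3 window contains 2 overlapping TATAAA matches, 1 on each strand, printed as 1 run.
Meg3 promoter window: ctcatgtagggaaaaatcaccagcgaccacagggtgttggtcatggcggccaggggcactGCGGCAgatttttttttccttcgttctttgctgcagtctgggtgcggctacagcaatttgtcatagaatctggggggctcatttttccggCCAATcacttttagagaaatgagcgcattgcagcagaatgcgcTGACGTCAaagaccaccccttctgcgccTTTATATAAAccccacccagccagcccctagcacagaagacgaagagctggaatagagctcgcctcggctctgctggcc
Rian promoter window: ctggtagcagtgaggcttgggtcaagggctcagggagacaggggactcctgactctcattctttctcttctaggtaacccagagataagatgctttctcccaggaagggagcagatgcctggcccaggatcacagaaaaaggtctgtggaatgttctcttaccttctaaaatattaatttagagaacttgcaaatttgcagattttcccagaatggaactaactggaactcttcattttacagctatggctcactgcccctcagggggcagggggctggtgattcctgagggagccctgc
Kcnq1ot1 promoter window: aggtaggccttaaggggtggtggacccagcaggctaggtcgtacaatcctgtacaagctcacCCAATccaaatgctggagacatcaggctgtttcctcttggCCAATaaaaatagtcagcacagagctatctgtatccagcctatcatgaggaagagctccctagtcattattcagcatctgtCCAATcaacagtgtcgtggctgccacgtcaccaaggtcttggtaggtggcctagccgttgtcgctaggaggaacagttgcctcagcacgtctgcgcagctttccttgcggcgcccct
Igf2r promoter window: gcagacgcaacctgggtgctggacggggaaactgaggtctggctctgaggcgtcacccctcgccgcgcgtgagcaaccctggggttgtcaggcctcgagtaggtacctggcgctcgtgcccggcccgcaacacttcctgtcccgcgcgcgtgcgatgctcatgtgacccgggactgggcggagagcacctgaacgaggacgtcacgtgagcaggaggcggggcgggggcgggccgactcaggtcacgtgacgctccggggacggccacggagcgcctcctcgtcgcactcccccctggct
Peg3 promoter window: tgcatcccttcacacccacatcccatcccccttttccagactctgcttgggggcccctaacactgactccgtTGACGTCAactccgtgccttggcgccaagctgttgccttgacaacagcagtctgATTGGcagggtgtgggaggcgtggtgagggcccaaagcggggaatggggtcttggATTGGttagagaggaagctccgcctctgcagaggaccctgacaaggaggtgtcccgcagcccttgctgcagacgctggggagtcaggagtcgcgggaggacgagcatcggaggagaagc
RefSeq gives Meg3 a further window at chr12:109545148-109545447, not printed, which held none of the 4 motifs and 1 CpG dinucleotide. The printed Meg3 window, the nearer to the start of the gene in the count matrix, held all 4 motifs, with the cAMP response element starting 57 bases before the annotated start. Peg3 was the other member with that element, 178 bases before its start, together with 2 CCAAT boxes. Kcnq1ot1 had 3 CCAAT boxes, at 188, 148 and 67 bases before its start. Of all 32851 windows in the table, 1.79% held the cAMP response element, 37.4% a CCAAT box, 13.6% a TATA core and 11.6% the ZFP57 hexamer. CpG dinucleotides numbered 34 in the Igf2r window, 13 in the printed windows of Meg3 and Peg3, 9 in that of Kcnq1ot1 and 0 in that of Rian, against a median of 7 over all windows. The Rian and Igf2r windows held none of the 4 motifs. These matches describe letters and do not show that a factor is bound.

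Total gene counts were 6982354 to 17128981 per library, lowest in both libraries labelled Chd4 shRNA. Between 60.2% and 62.6% of the counts from 50 to 200 were even numbers, for a reason that was not tested, so counting error may be larger than the counts imply. Chd4 itself had 806 and 618 nascent counts in the scrambled libraries and 730 and 760 in the libraries labelled Chd4 shRNA, and relative to other expressed genes it was higher there (log2 fold change 0.59 ± 0.16 SE, adjusted p = 0.00614). That call went the other way from the label, and it was lost in a fit of the 15464 genes at least 3-fold above background (log2 fold change 0.22 ± 0.15, adjusted p = 0.241). An shRNA acts on finished RNA, so nascent counts do not check the knockdown, and these libraries are named by their label. Smarca4, which encodes BRG1, had a log2 fold change of 0.11 ± 0.16 with BRM014 (adjusted p = 0.757). All 10 markers of naive stem cells were expressed. Their summed level above background was 1817 to 1859 CPM (counts scaled to library size) in the libraries labelled Chd4 shRNA against 2890 to 2973 in the scrambled ones. Of the 10, 7 were called lower, where 20.2% of expressed genes were. These calls are relative to other expressed genes, whose median moved by 0.183 to 0.587 on the log2 scale under scalings on spike-in RNAs. Whether the markers were called under those scalings is not given here. Markers of fibroblasts or feeder cells summed to 23.5 to 29.4 CPM above background in the former and 3.40 to 3.45 in the latter. After background subtraction 4 of these 6 markers (Col1a1, Col1a2, Pdgfrb and Thy1) were called higher, where 13.8% of genes were. However, 5 to 6 of the 6 markers were at or below 2 times background in every library of both groups. Extraembryonic endoderm markers were also higher in sum with Chd4 shRNA, at 8.15 to 11.4 against 3.09 to 3.43 CPM above background. So were markers of primed or early differentiated cells, at 15.6 to 17.4 against 11.7 to 12.3. Trophoblast markers were lower, at 6.85 to 10.1 against 12.8 to 17.5, as were 2-cell-like markers, at 0 to 1.92 against 4.31 to 4.68. Most of these markers were at or below 2 times background in the libraries labelled Chd4 shRNA. In bulk RNA, fewer cells of a type and less RNA per cell cannot be told apart, and the part of these shifts in the values below was not tested.

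Every value here has to be read against background. It was taken from 1434 receptor genes of the olfactory and vomeronasal families, which were taken to be silent in these cells. Their raw counts per kb of exon were 2.65 ± 0.0208 (SD, n = 2) in DMSO, 2.15 ± 0.696 in BRM014, 1.58 ± 0.361 in scrambled and 6.99 ± 0.303 in Chd4 shRNA libraries. These are not scaled to library size, which ran from 0.560 in Chd4 shRNA r4 to 1.64 in BRM014 r2 on a relative scale, so they do not compare groups directly. A uniform background of that size would make 1.45% to 2.38% of the counts in the other 6 libraries and 11.9% and 13.6% in the 2 labelled Chd4 shRNA. Only Meg3 had a mean count over the 8 libraries at least 10-fold above the mean background (11.5-fold), which placed it among the 8017 genes called expressed. Rian (8.80-fold), Peg3 (7.75-fold), Igf2r (6.52-fold) and Mirg (6.43-fold) were at least 3-fold above it, Kcnq1ot1 was 2.65-fold and Peg10 1.87-fold above it, and Dlk1 (1.10-fold), H19 (1.00-fold) and Igf2 (0.490-fold) were at its level. All 10 passed the filter on low counts. H19 and Igf2 did so only through the 2 libraries labelled Chd4 shRNA, with 20 and 11 and with 18 and 25 counts. Their calls as higher in those libraries were thus favoured by the filter. All 10 were tested in a fit of all 35426 genes that passed, with library sizes from the expressed genes. That fit was repeated after the background of each gene's exon length was subtracted.

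Per kb of exon and with background subtracted, Meg3 had the highest mean level of the 10 in every group. In DMSO it was 2.81 ± 0.686 CPM per kb (SD, n = 2), followed by Peg3 (2.21 ± 0.363), Rian (2.03 ± 0.296), Mirg (1.38 ± 0.0595), Igf2r (0.882 ± 0.0493), Kcnq1ot1 (0.431 ± 0.0642) and Peg10 (0.123 ± 0.0102). There the libraries of Meg3 and Peg3 overlapped, as did those of Peg3 and Rian, whereas Meg3 lay above Rian without overlap. The steps from Rian to Mirg and down to Peg10 were larger than the SDs on either side. Within each of the 8 libraries the level of Rian per kb was 0.672 to 0.854 times that of Meg3. In the libraries labelled Chd4 shRNA the order was Meg3 (6.87 ± 0.465), Rian (4.80 ± 0.576), Igf2r (4.12 ± 0.410), Mirg (3.42 ± 0.219), Peg3 (1.90 ± 0.367), Kcnq1ot1 (1.05 ± 0.142) and Peg10 (0.917 ± 0.0329), so that Peg3, at rank 2 in DMSO, stood at rank 5. There the libraries of Rian and Igf2r overlapped, the step from Kcnq1ot1 to Peg10 was smaller than the SD of Kcnq1ot1, and Meg3 lay above Rian without overlap. In the scrambled libraries each gene overlapped with the next among Meg3 (2.27 ± 0.309), Peg3 (2.05 ± 0.677), Rian (1.82 ± 0.431) and Igf2r (1.77 ± 0.115). In BRM014 libraries Meg3 (1.99 ± 0.000237) led Rian (1.61 ± 0.0997), Peg3 (1.55 ± 0.0898), Igf2r (1.20 ± 0.00993), Mirg (1.02 ± 0.209) and Kcnq1ot1 (0.175 ± 0.0125), where the libraries of Rian and Peg3 overlapped and the step from Igf2r to Mirg was smaller than the SD of Mirg.

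**Figure D1:**
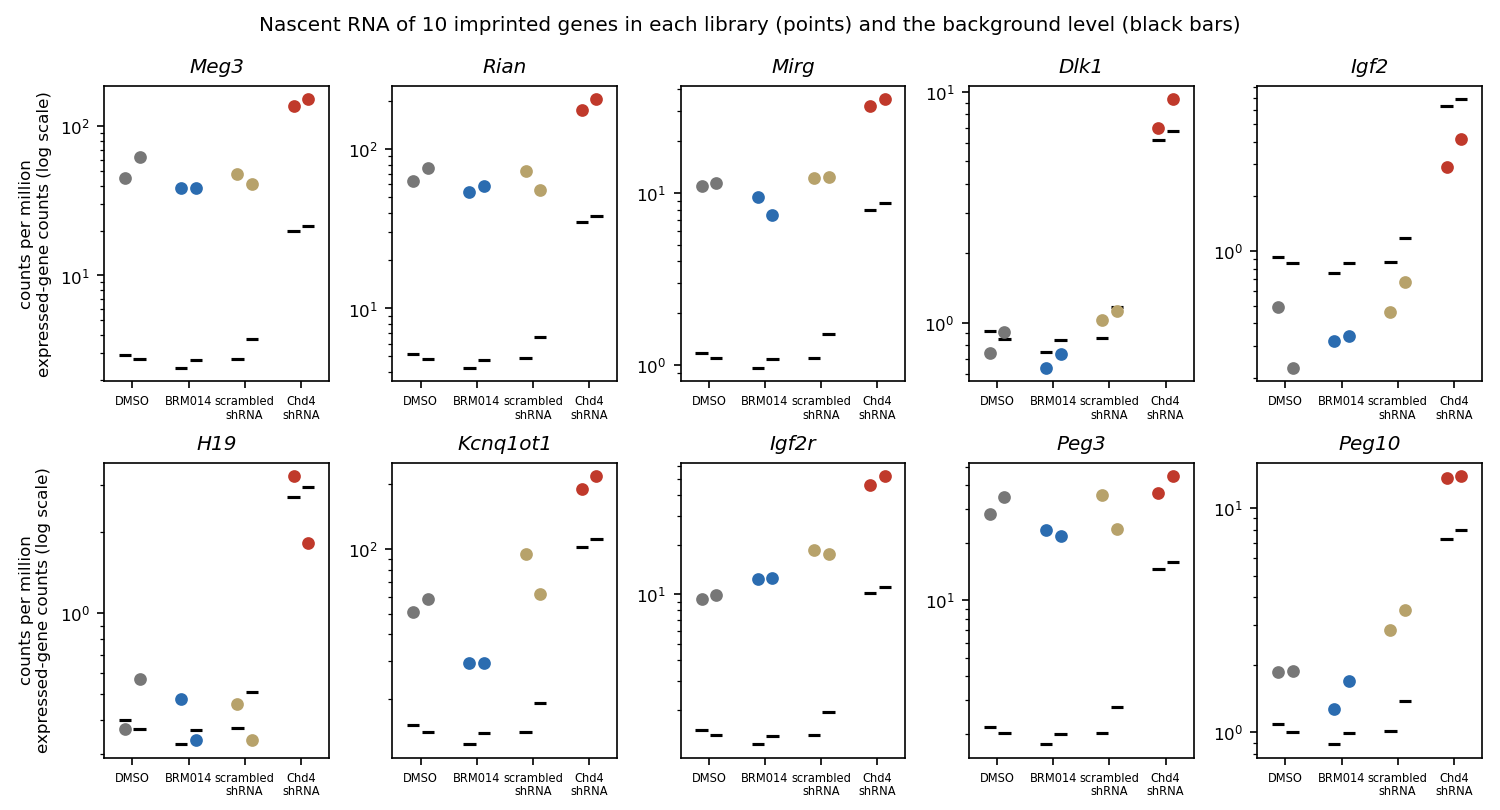
Level of each of the 10 genes in each of the 8 libraries, as CPM on a log axis that differs between panels; points are libraries, and black bars are the level that background alone would give. Meg3, Rian, Mirg, Peg3 and Igf2r stand above the bars in every library, and Dlk1, H19 and Igf2 sit near or below them.

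Meg3, a long noncoding RNA, spans chr12:109541001-109571726 on the + strand (mm10), with 18.1 kb of exon. It had 728 and 1098 counts in DMSO r1 and r2, 482 and 686 in BRM014 r1 and r2, 416 and 362 in scrambled r1 and r3 and 855 and 916 in Chd4 shRNA r1 and r4. As CPM these were 45.0 and 62.4, 38.4 and 38.7, 47.8 and 40.9, and 138 and 152. The libraries labelled Chd4 shRNA were the highest and did not overlap with any other, though their total counts were the lowest of the 8. Both BRM014 libraries lay below both DMSO libraries, which differed more from each other than the BRM014 libraries did.

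With Chd4 shRNA, Meg3 was 3.27-fold higher than with the scrambled shRNA among expressed genes (log2 fold change 1.71 ± 0.15 SE, adjusted p = 5.83e-08), a comparison in which 20.4% of the 8017 genes were called higher. Subtracting background gave 1.60 ± 0.16, and the fit on genes at least 3-fold above background gave 1.34 ± 0.15 (adjusted p = 7.40e-09). Scaled by TMM over all genes past the count filter, most of them near background, the value was 0.36 (adjusted p = 0.024), and with background subtracted as well it was 0.24 and not called (adjusted p = 0.230). With BRM014 the log2 fold change of Meg3 was −0.48 ± 0.15, which missed the threshold (adjusted p = 0.0565), where 7.15% of expressed genes were called and 4.69% were lower. The value was −0.69 and called without DMSO r1 (adjusted p = 0.00224), but −0.22 without DMSO r2 (adjusted p = 0.291). The effects of Chd4 shRNA and BRM014 on Meg3 differed from each other by 2.19 ± 0.21 on the log2 scale (adjusted p = 3.46e-07), where 16.4% of expressed genes were called in that direction. Scrambled shRNA against DMSO gave −0.28 ± 0.15 (adjusted p = 0.248), where 6.24% were called lower; this comparison shares its libraries with both others.

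Rian, which hosts box C/D small nucleolar RNAs, begins 62.8 kb downstream of the Meg3 start at chr12:109603808-109661716, and Mirg, which hosts a microRNA cluster, lies at chr12:109729764-109749460, both on the + strand. Rian had 1027 and 1347 counts in DMSO, 671 and 1037 in BRM014, 634 and 488 in scrambled and 1087 and 1236 in Chd4 shRNA libraries. Mirg had 177 and 202, 119 and 132, 106 and 110, and 197 and 210 in the same order. As CPM, both genes were highest in the libraries labelled Chd4 shRNA, at 176 and 205 for Rian and 31.8 and 34.8 for Mirg, with no overlap with the scrambled libraries. In all 8 libraries the count of Rian was 1.23 to 1.52 times that of Meg3, and that of Mirg 0.184 to 0.304 times. After background subtraction Meg3 made up 36.3% to 42.1% of the 3 together. These ratios are within 1 library and so do not depend on how libraries are scaled.

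In the fit of all genes past the count filter, all 10 members were called higher with Chd4 shRNA, in a fit that called 75.0% of all genes higher, with a median log2 fold change of 1.64 over the members and 1.75 over all genes. All 10 also had both libraries above both scrambled ones, as had 81.7% of all genes, so these counts are near the background share. They include H19 and Igf2, which passed the filter only through the Chd4 shRNA libraries and so lend no weight to a rise. With background subtracted, 6 of the 10 were called higher (Igf2r, Kcnq1ot1, Meg3, Mirg, Peg10 and Rian) and 0 lower, where 13.8% of genes were called higher. The median was then 1.31 over the members and 0.35 over all genes, and 7 of the 10 still lay above both scrambled libraries, as did 37.4% of genes. This direction depends on scaling, since TMM over all genes past the count filter called 0 of the 10 higher and 2 lower after subtraction. That scaling moved the median expressed gene by −1.34, and the share of all genes called under it after subtraction is not given here. Rian rose by 1.40 ± 0.15 (adjusted p = 2.24e-17) and Mirg by 1.18 ± 0.20 (adjusted p = 1.37e-07) on the log2 scale after subtraction. In the fit on genes at least 3-fold above background, which has its own scaling, 4 of the 5 members tested were higher (Igf2r, Meg3, Mirg and Rian), where 25.1% of genes were called higher. With BRM014, Rian (−0.32 ± 0.15, adjusted p = 0.321) and Mirg (−0.42 ± 0.16, adjusted p = 0.191) were not called, though both libraries lay below both DMSO libraries for each.

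**Figure D2:**
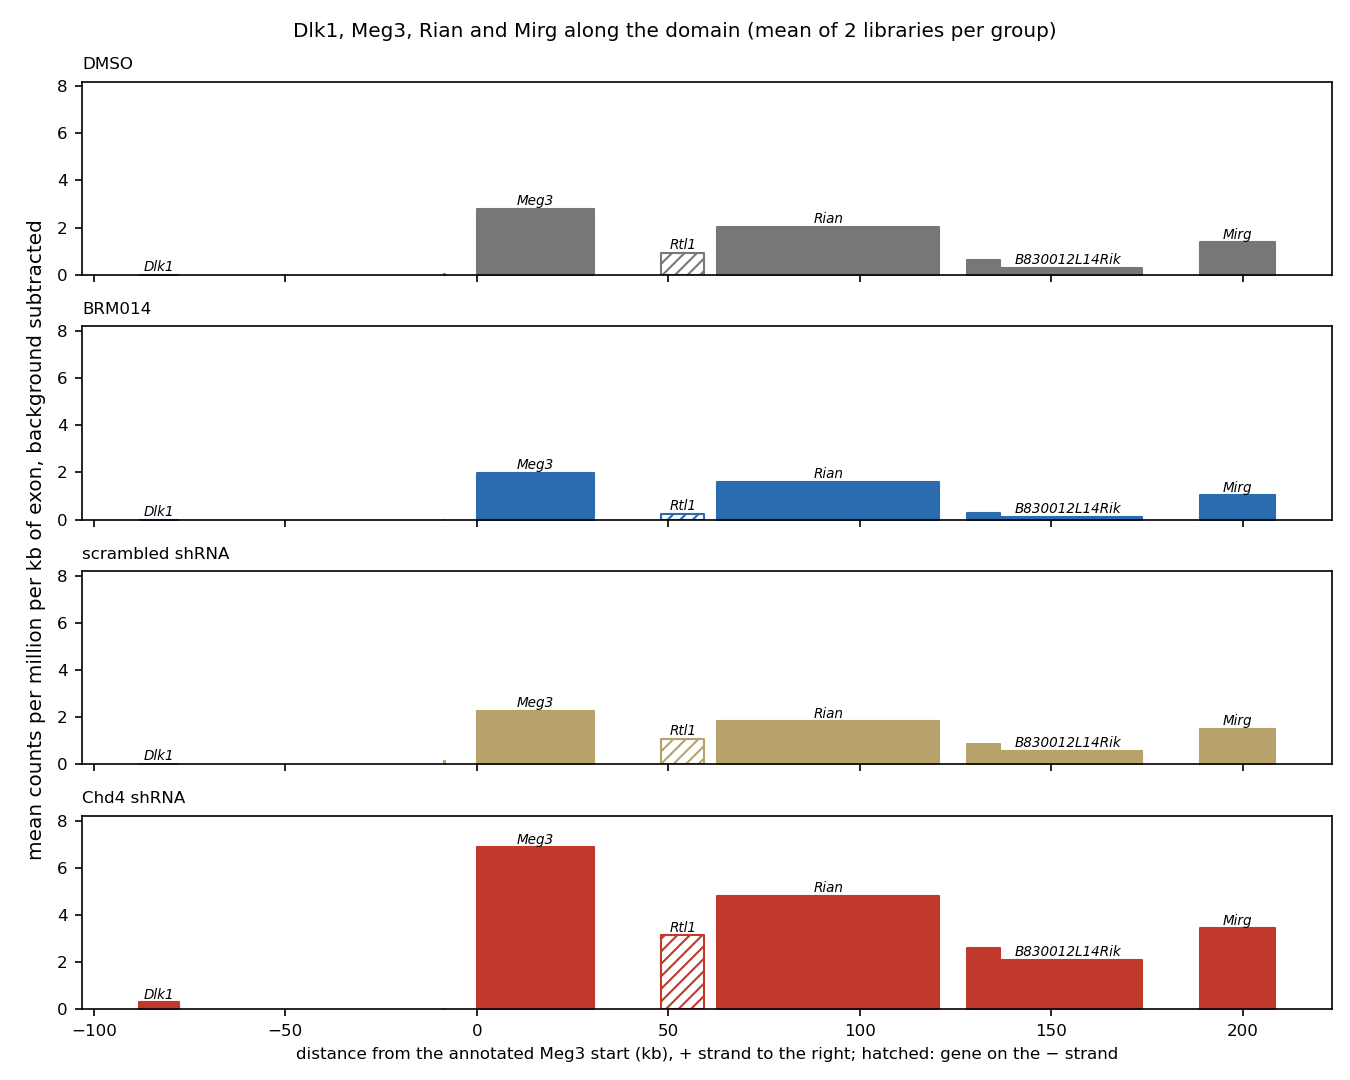
Mean level of 2 libraries per group, in CPM per kb of exon with background subtracted, drawn over the span of each annotated gene against its distance from the Meg3 start in kb; hatched bars are genes on the − strand, and the unlabelled bar before B830012L14Rik is Gm37899. Meg3, Rian and Mirg form 3 steps of falling height in each group, and Dlk1 is near 0 except for 0.290 in Chd4 shRNA libraries.

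Dlk1, a transmembrane protein related to Notch ligands, lies upstream at chr12:109452823-109463336. It had 12 and 16 counts in DMSO, 8 and 13 in BRM014, 9 and 10 in scrambled and 43 and 56 in Chd4 shRNA libraries. Background alone would have given 14.9 and 15.1, 9.39 and 15.0, 7.49 and 10.4, and 38.3 and 40.8. Dlk1 was therefore at 0.806 to 1.37 times background in every library, and its called rise with Chd4 shRNA (2.89 ± 0.30, adjusted p = 1.49e-09) was not called once background was subtracted (adjusted p = 0.106).

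Of 65 other genes listed for the domain, 60 had a row, 4 passed the count filter and 0 were expressed. Rtl1, a paternally expressed gene derived from a retrotransposon that is read on the opposite strand between Meg3 and Rian, was the 1 of these 4 called in BRM014, where 2.09% of genes were called lower, and it is named here after its values were seen. It had 108 and 125 counts in DMSO, 30 and 45 in BRM014, 83 and 58 in scrambled and 175 and 158 in Chd4 shRNA libraries. Its log2 fold change with BRM014 was −1.47 ± 0.21 (adjusted p = 2.62e-05), and with Chd4 shRNA 1.53 ± 0.22 after background subtraction (adjusted p = 6.79e-10). The BRM014 counts of Rtl1 lay below all 6 other libraries. An RNA antisense to Rtl1 is known from the maternal copy, and which strand was counted is not given in the sources used here.

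The 85 annotated + strand rows of at most 150 bases between the Meg3 start and the Mirg end were taken by length and position, not by RNA type. They include small nucleolar RNA and microRNA genes. Together they had 93 to 235 counts per library, where background would give 9.12 to 49.6. Of these rows, 4 reached 10 counts in a library. Gm24895, inside Rian, had 25 and 28 counts in DMSO, 16 and 16 in BRM014, 13 and 9 in scrambled and 20 and 22 in Chd4 shRNA libraries. It was called higher with Chd4 shRNA (1.45 ± 0.31, adjusted p = 0.00106), as its host was. AF357425 in Rian peaked at 10 counts, and Gm27596 and Mir1906-1 in Meg3 at 19 and 17, all in DMSO r2. Reads of such rows cannot be told apart from reads of their host RNA.

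Kcnq1ot1 spans chr7:143203458-143296549 on the − strand and was counted over 93.1 kb as a single exon. It had 826 and 1029 counts in DMSO, 369 and 520 in BRM014, 823 and 544 in scrambled and 1178 and 1317 in Chd4 shRNA libraries. Background over this length would have given 245 and 248, 155 and 246, 123 and 171, and 631 and 671. Both BRM014 libraries lay at 29.4 CPM and both DMSO libraries above 50, at 51.1 and 58.4, with no overlap. The scrambled libraries were apart from each other, at 94.5 and 61.4 CPM.

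Kcnq1ot1 was the only member called with BRM014 in the fit of all genes past the count filter, lower by 0.537-fold (log2 fold change −0.90 ± 0.16, adjusted p = 7.78e-04), where 2.09% of genes were called lower. Background subtraction made the fall larger, at −1.31 ± 0.16 (adjusted p = 9.56e-13), and Meg3 was then also called (−0.50 ± 0.15, adjusted p = 0.0486), 2 of 10 where 1.82% of genes were called lower. That call of Meg3 was lost in 11 of 12 alternatives, among them DESeq2 (adjusted p = 0.0863), the fit of its own 4 libraries (adjusted p = 0.0650), the replicate block (adjusted p = 0.346), each of the other scalings and the fits without BRM014 r1, without BRM014 r2 or without DMSO r2 (−0.22, adjusted p = 0.788), and it held without DMSO r1. The call of Kcnq1ot1 was lost without BRM014 r2 (adjusted p = 0.0585) and with each of the 3 scalings on spike-in RNAs, under which the fold change was −0.90 to −0.79. With Chd4 shRNA its log2 fold change was 1.39 ± 0.16 as counted and 0.67 ± 0.16 after subtraction (adjusted p = 1.78e-04), a call that was lost without scrambled r3 (0.28, adjusted p = 0.352), in DESeq2 (adjusted p = 0.133) and in a fit of its own 4 libraries (adjusted p = 0.152). The 2 effects differed by 2.29 ± 0.23 (adjusted p = 5.05e-09), where 64.6% of genes were called in that direction, and by 1.98 ± 0.22 after subtraction (adjusted p = 6.18e-16), where 10.4% were. The ratio of Kcnq1ot1 to Meg3 counts after subtraction was 0.799 ± 0.0776 (SD, n = 2) in DMSO, 0.452 ± 0.0321 in BRM014, 1.46 ± 0.460 in scrambled and 0.785 ± 0.0534 in Chd4 shRNA libraries. Kcnq1, the potassium channel gene that contains it on the opposite strand, had 7 to 44 counts per library.

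**Figure D3:**
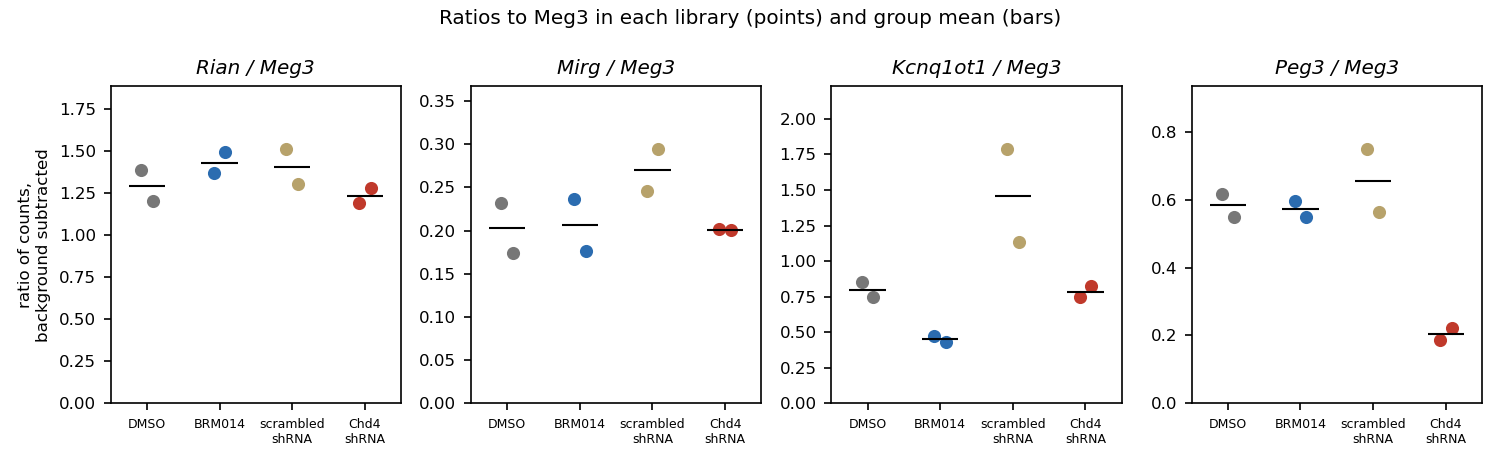
Counts of Rian, Mirg, Kcnq1ot1 and Peg3 divided by those of Meg3 in the same library after background subtraction; points are libraries, bars are group means, and the axes start at 0. Group means run from 1.23 to 1.43 for Rian and from 0.201 to 0.270 for Mirg, Kcnq1ot1 is lowest in BRM014 at 0.452, and Peg3 is lowest in Chd4 shRNA libraries at 0.203.

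Igf2r, the receptor that clears IGF2 and sorts lysosomal enzymes, lies at chr17:12682406-12769664. Its counts were 152 and 175 in DMSO, 155 and 224 in BRM014, 162 and 156 in scrambled and 284 and 315 in Chd4 shRNA libraries. As CPM the groups were ordered without overlap from DMSO (9.40 and 9.94) through BRM014 (12.4 and 12.6) and scrambled (18.6 and 17.6) to Chd4 shRNA (45.9 and 52.2). Igf2r was the only member called between the 2 control groups, 1.87-fold higher with scrambled shRNA than with DMSO (log2 fold change 0.90 ± 0.16, adjusted p = 5.18e-04), where 2.18% of genes were called higher. After subtraction Kcnq1ot1 was called as well (0.61 ± 0.15, adjusted p = 0.00584), 2 of 10 where 2.14% of genes were called higher. That call of Kcnq1ot1 was lost in 8 of 10 alternatives (all 4 other scalings, DESeq2, its own 4 libraries, without DMSO r1 and without scrambled r1), with values from 0.07 without scrambled r1 to 1.07 with abundant spike-in RNAs. As CPM, 5 of the 10 had both scrambled libraries above both DMSO libraries (Mirg, Dlk1, Kcnq1ot1, Peg10 and Igf2r), as had 27.2% of genes. These controls differ in vector, selection and time, which cannot be told apart. With Chd4 shRNA against scrambled it rose by 1.22 ± 0.18 after subtraction (adjusted p = 1.69e-09) and by 1.06 ± 0.14 in the fit on genes 3-fold above background (adjusted p = 1.61e-07). With BRM014 the value was 0.37 ± 0.15 (adjusted p = 0.250), and it was the 1 member with both libraries above both DMSO libraries, as were 13.8% of genes. The opposite direction, both BRM014 libraries below both DMSO libraries, was seen for 7 of 10 members and 29.8% of genes.

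Peg3, a zinc-finger protein gene, lies at chr7:6703892-6730431. It had 455 and 613 counts in DMSO, 291 and 385 in BRM014, 311 and 210 in scrambled and 226 and 270 in Chd4 shRNA libraries. As CPM the Chd4 shRNA libraries, at 36.5 and 44.7, lay above the scrambled ones, at 35.7 and 23.7, but after background subtraction, at 21.9 and 28.8 against 33.7 and 20.9, they overlapped. The call in the fit of all genes (0.45 ± 0.17, adjusted p = 0.0171) was thus lost after subtraction, where the log2 fold change was −0.10 ± 0.18 (adjusted p = 0.714). It was 0.08 ± 0.16 in the fit on genes 3-fold above background (adjusted p = 0.696). The ratio of Peg3 to Meg3 after subtraction was 0.203 ± 0.0256 in Chd4 shRNA libraries and 0.571 ± 0.0331 to 0.656 ± 0.130 in the other groups. With BRM014 Peg3 was lower in both libraries but not called (−0.49 ± 0.16, adjusted p = 0.106).

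Peg10, another gene derived from a retrotransposon, lies at chr6:4747306-4760517. It had 30 and 33 counts in DMSO, 16 and 30 in BRM014, 25 and 31 in scrambled and 84 and 84 in Chd4 shRNA libraries, which was 1.45 to 2.83 times background. Its log2 fold change with Chd4 shRNA was 1.62 ± 0.41 after subtraction (adjusted p = 9.32e-04). Peg10 stood at 2.68 times background on average in scrambled and 1.80 times in Chd4 shRNA libraries, so this value rests on the background estimate. The call was lost under TMM over all genes past the count filter and under TMM over all spike-in RNAs. H19, a noncoding RNA, had 3 to 20 counts per library and stood at 0.621 to 1.53 times background. Igf2, a fetal growth factor, had 4 to 25 counts and stood below background in every library, at 0.263 to 0.606 times. Transcription of H19 and Igf2 was not detectable above background, and their calls with Chd4 shRNA (2.64 ± 0.51 and 2.61 ± 0.44) are values at background level.

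**Figure D4:**
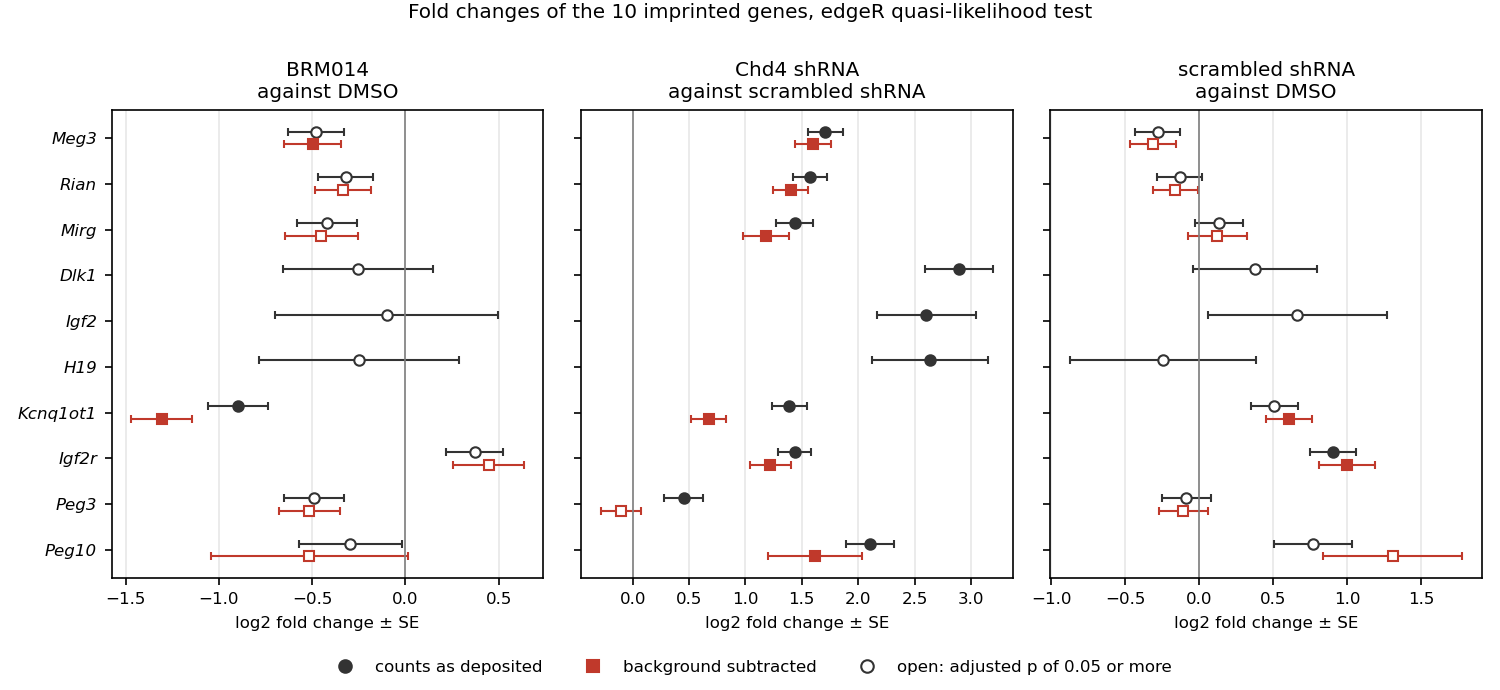
Log2 fold change of each gene with its standard error in 3 comparisons, on axes that differ between panels, from counts as deposited (circles) and after background subtraction (squares, not drawn for Dlk1, Igf2 and H19); filled symbols have an adjusted p under 0.05. Kcnq1ot1 stands apart in BRM014 at −0.90 and −1.31, and Peg3 is the gene nearest to 0 with Chd4 shRNA.

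The libraries differ in how they can be scaled. Against the scale used here, the median expressed gene moved by −1.34 with Chd4 shRNA under TMM over all genes past the count filter, and by 0.183 to 0.587 under the 3 spike-in scalings. In the scrambled comparison with DMSO these shifts were −0.128 and −0.169 to 0.507. With BRM014 the largest was 0.140. All changes are therefore relative to other expressed genes, and a value with Chd4 shRNA from 0.587 below 0 to 1.34 above it can change sign under 1 of these scalings. Meg3, at 0.36 to 2.33 with Chd4 shRNA, kept its sign and its call under each of them, as counted.

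Among expressed genes with an established name other than the members, those whose CPM on a log2 scale followed Meg3 most closely over the 8 libraries were Blm, a DNA helicase (Pearson r = 0.993), Phkg2, a phosphorylase kinase subunit (0.988), Eya3, a transcriptional cofactor (0.988), Sugp1, a splicing factor (0.985), and Ccar1 (0.983). Rian followed it at 0.993, and the other members at 0.836 (Peg3) to 0.965 (Dlk1). Both libraries labelled Chd4 shRNA are high for all of these, and the points share library depth and background, so r is a description only.

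Of 147 other genes listed for imprinted domains or reported as imprinted in some tissue, 140 had a row, 82 passed the count filter and 16 were expressed. With BRM014, 0 of the 16 were called by edgeR and 0 by DESeq2, 3 had an unadjusted p under 0.05 in edgeR, the median was −0.05, 7.15% of all expressed genes were called, and the smallest p values belonged to Impact (0.38 ± 0.14, adjusted p = 0.115), Copg2 (0.36 ± 0.13, adjusted p = 0.120) and Snurf (0.39 ± 0.18, adjusted p = 0.201). Dhcr7 (0.31 ± 0.15), Snrpn (0.23 ± 0.12) and Blcap (−0.27 ± 0.14) came next and were not called either. With Chd4 shRNA, 3 were higher and 5 lower, at a median of −0.35 against 0.01 over all expressed genes, where 20.4% were called higher and 20.2% lower. TMM over all genes past the count filter, which moved the median expressed gene by −1.34 and called most expressed genes lower, called all 16 lower. Plain sums of spike-in RNAs, which moved that median by 0.587, called 4 higher and 0 lower. Abundant spike-in RNAs also called 4 higher and 0 lower, and TMM over all spike-in RNAs called 0 in either direction. The 5 falls were thus called under none of the spike-in scalings. The tetraspanin gene Cd81, beside the Kcnq1 domain, fell by 0.89 ± 0.14 on the log2 scale (adjusted p = 4.25e-05). Its level was 73.4 and 73.2 CPM in scrambled and 40.4 and 38.4 CPM in Chd4 shRNA libraries. Its raw counts, 639 and 649 against 250 and 232, also carry the smaller size of the latter libraries. Dhcr7, a cholesterol synthesis enzyme, fell by 0.91 ± 0.17 (adjusted p = 3.16e-04), and Commd1 and Snrpn each by 0.55, while Jade1 rose by 0.79 ± 0.17 (adjusted p = 8.89e-04) and Blcap by 0.57 ± 0.16 (adjusted p = 0.00755). Snrpn and Snurf share a transcript, so their reads may be split between them. DESeq2 called 6 of these 16 genes with Chd4 shRNA. Meg3 was called higher in the edgeR fit, where 20.4% of expressed genes were called higher and 20.2% lower.

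Of 27 genes listed as acting on imprints, 15 were expressed. With BRM014, Tet1, an enzyme that oxidises methylated cytosine, was the 1 gene of the 15 called, where 7.15% of expressed genes were called, with 1800 and 2312 counts in DMSO and 906 and 1098 in BRM014 libraries (log2 fold change −0.86 ± 0.15, adjusted p = 8.64e-04). The insulator protein gene Ctcf (0.25 ± 0.15, adjusted p = 0.360) and the Polycomb gene Suz12 (0.20 ± 0.14, adjusted p = 0.444) were not called. With Chd4 shRNA 4 of the 15 were higher and 4 lower, where 20.4% and 20.2% of expressed genes were. TMM over all genes past the count filter, which called most expressed genes lower, called 0 of the 15 higher and all 15 lower. Plain sums of spike-in RNAs called 7 higher and 0 lower, abundant spike-in RNAs 4 higher and 0 lower, and TMM over all spike-in RNAs 0 in either direction. These spike-in scalings moved the median expressed gene by 0.183 to 0.587, and the falls named next were not called under any of them. Trim28, the corepressor that ZFP57 recruits, fell by 0.97 ± 0.14 on the log2 scale (adjusted p = 2.15e-05), from 247 and 234 CPM to 118 and 127. Its raw counts, 2150 and 2074 against 732 and 768, also carry the difference in library size. The Polycomb gene Eed and Uhrf1, which brings DNMT1 to hemimethylated DNA, each fell by 0.62 ± 0.14. No link between these genes and the members was tested.

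**Figure D5:**
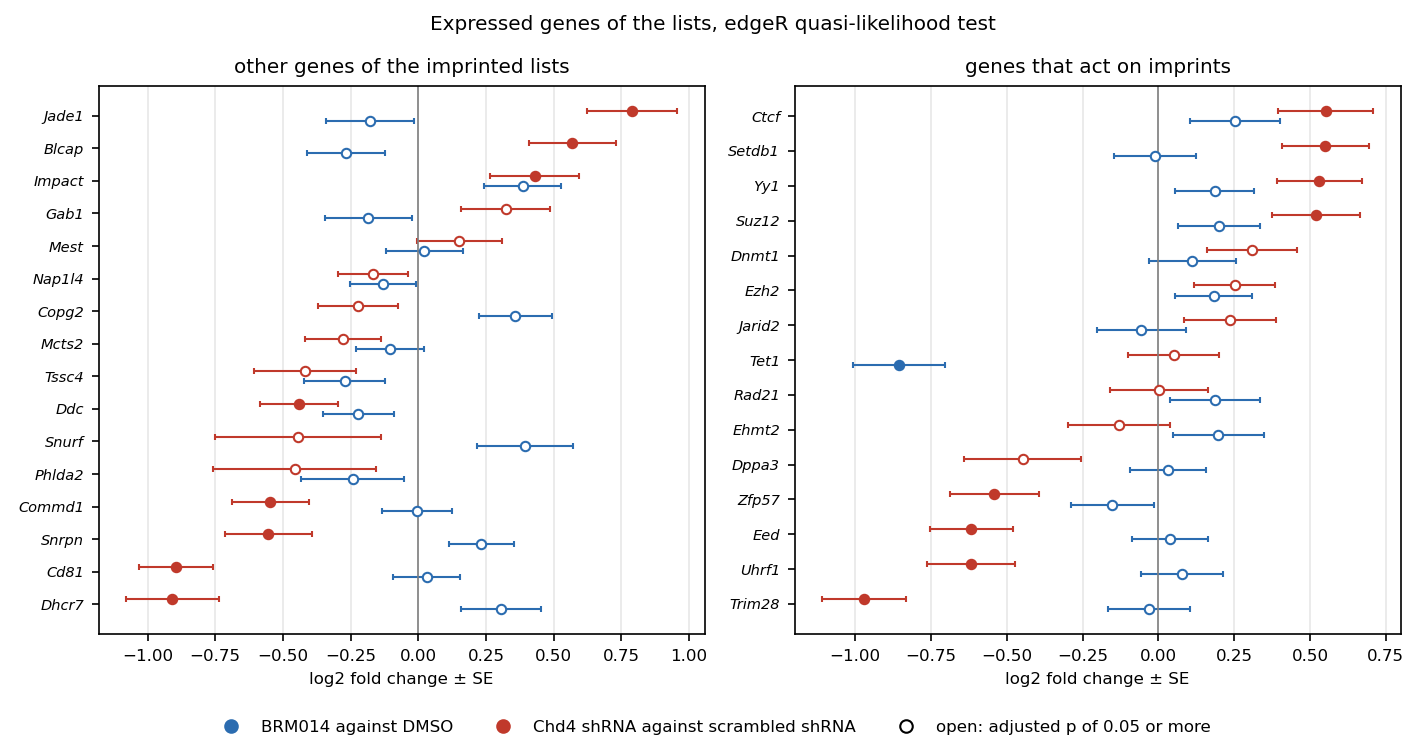
Log2 fold change with its standard error of the 16 other expressed genes of the imprinted lists (left) and the 15 expressed genes that act on imprints (right), for BRM014 against DMSO (blue) and Chd4 shRNA against scrambled shRNA (red); filled symbols have an adjusted p under 0.05. Tet1 is the filled blue point, and filled red points lie on both sides of 0, from −0.97 for Trim28 to 0.79 for Jade1.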

How the data were processed

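Nascent RNA was measured in 8 libraries; the series also holds 40 ChIP samples, not analysed here. The authors deposited read counts for each gene on mm10. Per the submitters' processing notes, Trim Galore 0.6.4, STAR 2.7.1a, featureCounts and edgeR 3.32.1 were used; the strand counted and the treatment of reads with several alignments are not given in the sources used here. Groups came from the sample labels, and columns r3 and r4, which match no title, were placed by their group name. The members, the gene lists, the tests and the rule for named genes were chosen with earlier results of these data known.

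The counts of all 8 libraries entered a quasi-likelihood F test (edgeR 4.0.16, R 4.3.3) on 8017 expressed genes, past edgeR's filter on low counts and at least 10-fold above background, with TMM scaling over them. The other fits used all 35426 genes past the filter with those sizes, the same after subtracting the background over 5330.3 kb of receptor exons in proportion to exon length (rounded, never below 0), and 15464 genes 3-fold above background with their own TMM scaling. A subtracted value is not a raw count, so its p-values are less certain. All p-values were Benjamini-Hochberg adjusted over their fit and called under 0.05. SEs came from the F statistic. With 2 libraries against 2, an exact permutation test cannot go below 0.333, so none is given. CPM are counts scaled to the effective library size. Named were all members, up to 6 other listed imprinted genes and 3 genes acting on imprints with the smallest p in each of 2 comparisons, 5 genes most like Meg3, Chd4, Smarca4, and small rows with at least 10 counts. The fits were tested on simulated data. Alternatives were other scalings (TMM over all genes past the filter, over all or the 4 abundant of 92 ERCC spike-in RNAs, and plain ERCC sums), DESeq2 1.42.0, other filters, replicate blocks, 4 libraries at a time and each library left out. Promoter windows are from RefSeq (GRCm38.p6).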

Additional observations from a re-analysis of the deposited data

How the results depend on the processing

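Numbers here are genes called, unless a log2 value is named. With BRM014, 573 expressed genes were called, against 0, 106 and 71 under TMM over 92 ERCC RNAs, plain ERCC sums and abundant ERCC RNAs, 303 by DESeq2, 953 in the fit of all genes past the count filter, and 1301 and 255 in fits of genes 3-fold and 30-fold above background. With Chd4 shRNA, 3255 (1634 higher, 1621 lower) became 7548 (52 and 7496) under TMM over all genes past the filter, 67 (61 and 6) under TMM over ERCC RNAs, 2019 (1957 and 62) with abundant ERCC RNAs, 28429 (26558 and 1871) in the fit of all genes, 34117 with no filter, and 7762 and 1717 at 3-fold and 30-fold. Scrambled shRNA against DMSO gave 1050, against 3, 430 (418 and 12) and 414 (404 and 10) under the ERCC scalings in the same order, 686 by DESeq2, 619 from its own 4 libraries, and 1638 and 582 at 3-fold and 30-fold. The difference of the effects gave 2473 (1312 and 1161), against 7185 (64 and 7121) under TMM over all genes past the filter, 24, 1344 (1322 and 22) and 610 (592 and 18) under the ERCC scalings, 24325 in the fit of all genes, 25032 with no filter, and 6517 and 1383 at 3-fold and 30-fold.

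Among expressed genes, Meg3 was not called with BRM014 (0), but the fit of its own 4 libraries called it (1), as did the replicate block (1) and the crossed replicate block (1). Deviations of BRM014 r1 and DMSO r1 had a correlation of −0.23 over 8017 genes, and no label names a shared source, so these libraries share only a number. No paired analysis was possible for the shRNA groups because their columns share only number 1. For Meg3 the difference of effects was not called under TMM over ERCC RNAs (0 against 1). Of the 9 other members, 1 (Kcnq1ot1) was called with BRM014 and 0 under each ERCC scaling; the fit at 3-fold called 0 of 4 but did not test Kcnq1ot1. With Chd4 shRNA 9 became 5 (4 higher, 1 lower) under TMM over all genes past the filter, 3 of the 4 tested at 3-fold, and 5 after subtraction. The 4 still higher under that TMM scaling were Dlk1, H19, Igf2 and Peg10, all under 2-fold above background, and Peg3 was lower. Rian, Mirg, Igf2r and Kcnq1ot1, which stood further above background, lost their calls under it. For the 9 members the difference of effects went from 9 to 3, 4 and 5 under the same settings. Scrambled against DMSO went from 1 to 0 under TMM over ERCC RNAs and 2 after subtraction. After subtraction, the 2 members called with BRM014 became 0 under TMM over ERCC RNAs and with abundant ERCC RNAs, and 1 under TMM over all genes past the filter, plain ERCC sums, DESeq2, own libraries and both blocks. The 6 called with Chd4 shRNA became 2 under TMM over all genes past the filter, both lower, and 1 under TMM over ERCC RNAs. Shares over all genes after subtraction under these other scalings are not given, so such counts describe the members only. The 2 called between controls became 0 under TMM over ERCC RNAs and 1 under TMM over all genes past the filter, DESeq2 and own libraries, while under plain and abundant ERCC scaling Kcnq1ot1 was lost and Peg10 gained.

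Leaving out 1 library gave 220 (without BRM014 r2) to 1300 (without DMSO r2) genes with BRM014, 2102 (without Chd4 shRNA r4) to 2812 with Chd4 shRNA, 373 (without scrambled r1) to 1791 (without DMSO r2) between controls and 1611 (without Chd4 shRNA r1) to 2900 for the difference. It gave 0 to 1 called for Meg3 with BRM014 and between controls, each time 1 without DMSO r1. For the 9 others it gave 0 (without BRM014 r2) to 1 with BRM014, 8 to 9 with Chd4 shRNA and for the difference, and 1 to 2 between controls. After subtraction it gave 1 to 2, 5 to 6 and 1 to 2 members in the 3 comparisons.

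Under TMM over all genes past the filter, log2 values reversed for Peg3 with Chd4 shRNA (−0.90) and in the difference (−0.48), and for Igf2r in the difference (−0.36). With background subtracted as well, they reversed with Chd4 shRNA for Mirg (−0.17), Kcnq1ot1 (−0.68) and Igf2r (−0.13), and in the difference for Peg3 (−1.02) and Igf2r (−0.65). Subtraction alone reversed Peg3 with Chd4 shRNA (−0.10) and left no counts of Igf2, whose values became 0.00 there and in the difference. The cause of these shifts was not tested beyond what each setting does. Background limits the values of Peg10, Dlk1, H19 and Igf2, all under 2-fold above it.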

Other observations

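Some neighbours of the members are given here as values, chosen after their values were seen. Sgce, which starts beside Peg10 on the opposite strand and is also paternally expressed, had 70 and 78 counts in DMSO, 38 and 78 in BRM014, 34 and 44 in scrambled and 145 and 182 in Chd4 shRNA libraries. Its log2 fold change with Chd4 shRNA after background subtraction was 2.51 ± 0.29 (adjusted p = 5.33e-16), against 1.62 ± 0.41 for Peg10. In that fit 13.8% of all genes were called higher, and 10 of the 18 neighbours listed for the Peg3, Peg10 and Igf2r domains. Usp29, which starts beside Peg3 on the opposite strand, had a value of 1.76 ± 0.50 (adjusted p = 0.00311). It stood at only 1.33 times background on average in scrambled and 1.18 times in Chd4 shRNA libraries. Its subtracted level in the latter was 3.72 ± 3.11 CPM (SD, n = 2), so its value is 1 near background level and is not set against that of Peg3. Airn, the antisense RNA over Igf2r, had 2 to 40 counts per library and stood at 1.28 times background on average.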
